A study of Mus musculus with 24 samples.

Results

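Gene expression in amputated digits of C57BL/6 (B6) mice was compared between day 14 and day 7 after the amputation. The 3 arrays titled as B6 day 14 and the 3 titled as B6 day 7 were used, 6 of the 24 arrays of the series. Both groups were wild-type mice of an inbred laboratory strain, aged 3 to 4 months, whose hindlimb middle digits were amputated at day 0 and collected 14 or 7 days later. The other groups were B6 digits on day 0, the day of the amputation, and on day 3, and digits of MRL mice, an inbred strain that is studied for how it heals ear holes, on the same 4 days, with 3 arrays each. The tissue label was the second phalanx, whereas the sample description spoke of the anterior portion of the middle digit, and which one the RNA came from is not settled by them. The labels called the arrays of a group biological replicates without naming animals. Both middle digits were taken, and pooling of animals was not stated, so the p-values measure only the spread between these arrays.

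The values were probe set intensities on a linear scale, and each gene was represented by 1 probe set. Differences are day 14 minus day 7 on the log2 scale with the standard error (SE) of a limma fit over all 24 arrays. The summed level of a list is the log2 of the summed intensities of its members in 1 array. Members with high intensities weigh most in it. A gene that rose or fell is one whose Benjamini-Hochberg adjusted p over 15928 probe sets was under 0.05. The arrays of a day correlated at 0.989 to 0.993 and arrays of different days at 0.979 to 0.988 over all probe sets. The median intensity of an array was 171.0 to 180.9 on day 14 and 156.4 to 175.9 on day 7. Krt14 of epidermis, Ibsp of bone and Acan of cartilage, whose values stand further on, were measured on both days. Low intensities include a background that was not measured here, which shrinks folds taken against them. The arrays labelled MRL day 3 and MRL day 0 went against their labels. Mmp13, a collagenase of bone and cartilage, had a log2 level of 10.99 ± 0.35 in B6 day 3 and 6.01 ± 0.31 in B6 day 0, against 5.82 ± 0.18 in the arrays labelled MRL day 3 and 10.54 ± 0.82 in those labelled MRL day 0 (SD, n = 3 each). Those MRL arrays entered the fit through its shared spread and through no contrast reported here.

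Hair grows in cycles, in which the lower follicle is rebuilt from stem cells before a new shaft is made. The shaft is built of hair keratins, filament proteins that are embedded in a matrix of keratin-associated proteins. It is moulded by the inner root sheath, which has keratins of its own and hardens through trichohyalin. Bone is remodelled by osteoclasts, multinucleate cells that dissolve mineral with acid and proteases, and by osteoblasts, which lay down matrix and become osteocytes within it.

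Between day 14 and day 7, 296 of 15928 probe sets passed the test (1.86%). Of these, 232 were higher on day 14 (1.46%) and 64 were lower (0.402%). The median difference over all probe sets was 0.01. Among 14807 single genes 213 rose and 59 fell, and 16.5% of all genes had no overlap between the 3 arrays of each day. A change of at least 2-fold was reached by 75 of the genes that rose and by 18 of those that fell. All 25 genes that rose at least 8-fold belonged to the lists of hair and nail keratins, inner root sheath keratins, keratin-associated proteins or other hair follicle genes. These lists held 7, 6, 18 and 24 of the 14807 genes. They were chosen with earlier results of these data known, so this membership is a description and no test. The 15 largest named falls included Gsta4, Idi2, Slpi and Atp6v0d2. The count of lower probe sets depended on single arrays. Without B6 day 14 replicate 3 it was 18, without B6 day 14 replicate 2 it was 122, and without B6 day 14 replicate 1 it was 30. Without B6 day 7 replicate 2 it was 29, and without B6 day 7 replicate 3 it was 24. The count of all calls was 182 without B6 day 14 replicate 3, 174 without B6 day 7 replicate 2, with 145 higher, and 193 without B6 day 7 replicate 3. With each array centred on its median, 229 probe sets were higher and 248 lower, and with cyclic loess scaling 286 were higher and 173 lower. In a fit to the 6 arrays alone, 135 were higher and 24 lower.

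**Figure D1:**
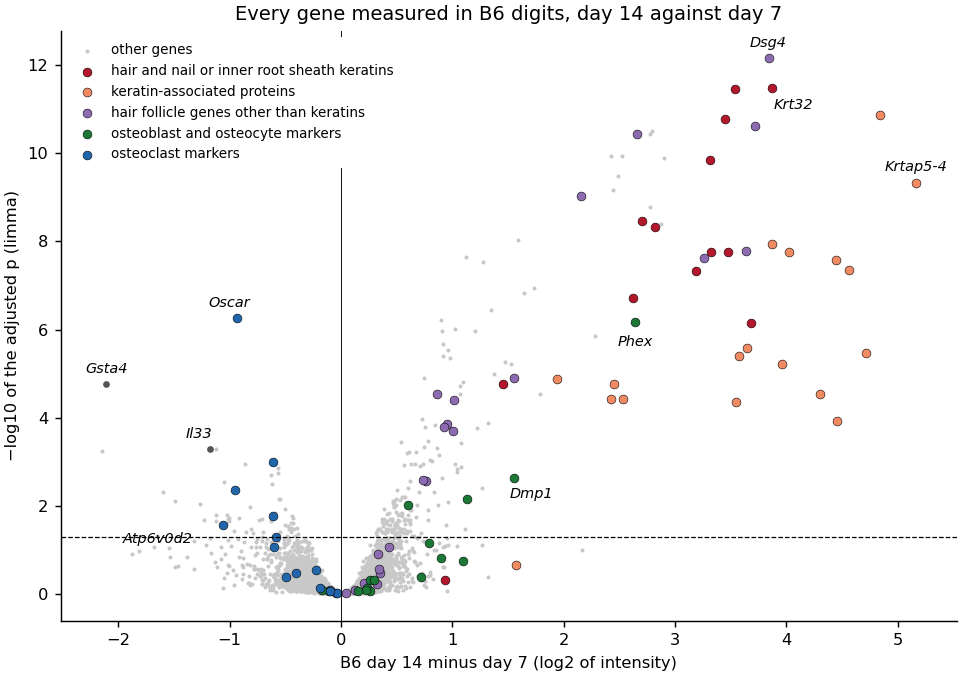
Every gene measured, with the log2 difference of B6 day 14 minus day 7 on the x axis and the −log10 of the adjusted p on the y axis. The dashed line marks an adjusted p of 0.05. Keratin, keratin-associated and other hair follicle genes fill the upper right, Krtap5-4 at a difference of 5.16, and osteoclast markers such as Oscar stand on the left.

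The hair shaft keratins were higher on day 14. Of 7 hair and nail keratins on the array, 6 rose and 0 fell, where 1.46% of all probe sets rose and 0.402% fell, and their median difference was 3.31. All 7 had no overlap between the days, as had 16.5% of all genes. Krt32, a type I keratin of the hair cuticle, had intensities of 998, 1018 and 1058 on day 14, against 75.5, 59.1 and 77.3 on day 7. The day 14 arrays were all far above the day 7 arrays, and within each day they lay close together. The difference was 3.87 ± 0.17, 14.6-fold, with an adjusted p of 3.26e-12. Krt82, a type II cuticle keratin, had 1074, 1228 and 1311 on day 14, against 97.6, 109 and 104 on day 7. Krt35, an early keratin of the hair matrix and cuticle, had 1208, 1453 and 1695 on day 14, against 162, 144 and 98.3 on day 7. Neither gene overlapped between the days, and their differences were 3.54 ± 0.16 and 3.45 ± 0.17. Krt31, a keratin of the hair cortex, had 610.2, 982 and 909 on day 14, against 86.5, 61.2 and 105 on day 7, a difference of 3.31 ± 0.19. Krt39 and Krt34 rose by 2.70 ± 0.19 and 2.62 ± 0.24. Krt84, a type II keratin of nail and tongue, had 389.6, 221 and 163 on day 14, against 134, 93.7 and 161 on day 7. Its days did not overlap, but the arrays of each day were spread and the difference of 0.93 ± 0.46 did not pass (adjusted p = 0.474).

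Between day 14 and day 0 digits, the 7 shaft keratins had 0 members higher and 2 lower, Krt31 and Krt34. Over all probe sets 37% passed that comparison, 22.8% higher and 14.2% lower, and it shares the day 14 arrays with the one above. Krt32 had 1189, 972 and 1127 in day 0 digits, and the difference of day 14 minus day 0 was −0.09 ± 0.17 (adjusted p = 0.709). Krt31 had 1766, 1331 and 1589.7 in day 0 digits, above each of its day 14 values, and day 14 minus day 0 was −0.93 ± 0.19 (adjusted p = 0.000809). A p that misses the threshold does not show that levels were equal. The median log2 levels of the list were 10.09, 6.38, 6.36 and 9.67 on days 0, 3, 7 and 14. RNA of whole tissue cannot tell a larger number of cells of a type from more RNA per cell.

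The keratin-associated proteins had the largest median difference of the 37 lists described here. Of 18 on the array, 17 rose and 0 fell, where 1.46% of all probe sets rose and 0.402% fell. The median difference was 3.91. Krtap5-4 had 3418, 5197 and 5453 on day 14, against 158, 187 and 71.2 on day 7. This 35.8-fold difference (5.16 ± 0.32, adjusted p = 4.79e-10) was the largest of the named genes. Krtap26-1 had 1517, 2186 and 2119.6 on day 14, against 91.7, 78.9 and 41.5 on day 7. The groups were again far apart, and B6 day 7 replicate 3 was the lowest array for both genes. Krtap19-5, a glycine- and tyrosine-rich member, had 888, 1833 and 1431 on day 14, against 54.6, 114 and 20.6 on day 7. It spread more than the others on day 7, and its difference was 4.72 ± 0.52. Krtap5-2, Krtap19-2, Krtap14, Krtap1-5 and Krtap4-7 rose by 4.56, 4.46, 4.44, 4.30 and 4.02. Krtap19-9b, Krtap13-1 and Krtap4-2 rose by 3.96, 3.87 and 3.65.

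Other members rose by less. Chosen after their values were seen, Krtap19-3 and Krtap6-2 rose by 3.57 ± 0.40 and 3.54 ± 0.47, Krtap31-1 and Krtap21-1 by 2.53 ± 0.33 and 2.45 ± 0.30, and Krtap19-4 and Krtap4-13 by 2.43 ± 0.32 and 1.94 ± 0.24. Krtap13, the member that did not pass, had 77.4, 29.9 and 16 on day 14, against 12.8, 9.54 and 11.7 on day 7 (1.57 ± 0.56, adjusted p = 0.224). It was likewise chosen after its values were seen, and it was the 1 member that was higher on day 14 than on day 0 (1.64 ± 0.56, adjusted p = 0.0264). Krtap6-2 had 521, 372 and 624 on day 14, against 1366, 1347 and 1980.0 in day 0 digits, and was lower in every day 14 array (−1.64 ± 0.47, adjusted p = 0.00918). Krtap21-1 and Krtap4-13 were the other members that were lower on day 14 than on day 0, by −1.45 ± 0.30 and −1.25 ± 0.24. Without B6 day 7 replicate 3 the difference was 3.51 for Krtap1-5, 2.96 for Krtap6-2 and 4.07 for Krtap19-5, and all 3 passed. Without B6 day 7 replicate 1 it was 5.03 for Krtap1-5 and 4.21 for Krtap6-2, and without B6 day 7 replicate 2 it was 5.31 for Krtap19-5. The genes of this family are close copies of each other, so probe sets of different members may share signal, and a further 10 called probe sets matched only several keratin or keratin-associated genes, 9 of them higher.

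The promoters of these genes are shown because the members moved together. Of the 29 hair keratins, inner root sheath keratins and keratin-associated proteins that rose, 27 had a promoter window in the RefSeq table of assembly GRCm38.p6, from 250 bases before to 50 bases after the annotated start. That assembly is not the mm8 build of the arrays. The letters TATAAA, searched on both strands, stood in 21 of the 27 windows (77.8%) and in 13.6% of 32851 windows of all genes. The letters CTTTGA, the core of the LEF1 motif, stood in 9 of 27 windows (33.3%) and in 5257 of the 32851 windows. Among 17 windows of the 11 other hair follicle genes that rose and had a window, TATAAA stood in 5 (29.4%) and CTTTGA in 2 (11.8%). These are descriptions of the letters, and the genes of a family share ancestry and sequence. The windows of 5 members picked by hand are given on the strand of the gene, 5′ to 3′, with TATAAA in capitals. All 5 hold these letters, and no window without them is shown. The match began 27 bases before the start in Krtap26-1 (chr16:88647747-88648046, minus strand), 29 in Krt31 (chr11:100050502-100050801, minus strand) and 88 and 29 in Krt32 (chr11:100088220-100088519, minus strand). It began 40 bases before the start in Krt71 (chr15:101743048-101743347, minus strand) and 15 in Krt27 (chr11:99351069-99351368, minus strand).
Krtap26-1: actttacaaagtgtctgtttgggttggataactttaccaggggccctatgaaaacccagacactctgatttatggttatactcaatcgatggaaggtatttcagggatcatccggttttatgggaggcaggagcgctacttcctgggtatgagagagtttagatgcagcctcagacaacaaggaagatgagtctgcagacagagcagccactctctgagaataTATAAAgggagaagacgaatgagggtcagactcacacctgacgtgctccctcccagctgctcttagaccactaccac
Krt31: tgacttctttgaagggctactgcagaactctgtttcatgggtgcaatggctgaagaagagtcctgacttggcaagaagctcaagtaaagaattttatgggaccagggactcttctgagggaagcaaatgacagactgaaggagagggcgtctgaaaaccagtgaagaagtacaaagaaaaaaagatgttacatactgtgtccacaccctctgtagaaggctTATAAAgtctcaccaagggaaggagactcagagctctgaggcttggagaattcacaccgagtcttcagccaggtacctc
Krt32: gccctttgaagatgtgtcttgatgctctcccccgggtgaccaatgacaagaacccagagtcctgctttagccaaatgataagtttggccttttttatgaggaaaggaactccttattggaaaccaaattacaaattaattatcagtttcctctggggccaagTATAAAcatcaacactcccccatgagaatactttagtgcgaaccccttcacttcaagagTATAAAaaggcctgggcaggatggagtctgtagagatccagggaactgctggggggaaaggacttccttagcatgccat
Krt71: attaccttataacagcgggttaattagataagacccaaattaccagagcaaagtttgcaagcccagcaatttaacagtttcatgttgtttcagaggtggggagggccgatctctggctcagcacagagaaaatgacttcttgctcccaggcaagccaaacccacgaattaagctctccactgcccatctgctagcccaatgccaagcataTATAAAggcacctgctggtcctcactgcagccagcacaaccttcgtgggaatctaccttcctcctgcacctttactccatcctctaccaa
Krt27: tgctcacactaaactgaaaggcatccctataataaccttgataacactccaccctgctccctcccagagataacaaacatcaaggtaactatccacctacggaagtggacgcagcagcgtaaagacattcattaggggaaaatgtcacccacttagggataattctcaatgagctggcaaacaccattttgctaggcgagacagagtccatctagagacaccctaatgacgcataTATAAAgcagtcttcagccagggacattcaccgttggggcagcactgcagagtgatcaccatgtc

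The inner root sheath keratins rose as well. All 6 on the array rose, where 1.46% of all probe sets did, and the median difference was 3.25. Krt71, a type II keratin of all layers of the sheath, had 5914, 7517 and 6639 on day 14, against 1193, 863 and 379.6 on day 7. Its partner Krt27, a type I keratin, had 3848, 4431 and 3803 on day 14, against 579.5, 388 and 208 on day 7. The days did not overlap for either gene, and B6 day 7 replicate 3 was the lowest array for both. The differences were 3.19 ± 0.27 and 3.48 ± 0.27 (adjusted p = 4.63e-08 and 1.78e-08). Krt25 had 4587, 5331 and 4581 on day 14, against 826, 558 and 244 on day 7, a difference of 3.32 ± 0.26. Krt73, of the sheath cuticle, gave 3.69 ± 0.37, and 2.90 without B6 day 7 replicate 3, where it had the lowest value. Krt72 and Krt74 rose by 2.82 ± 0.20 and 1.45 ± 0.18. Of the 6, 0 passed the test between day 14 and day 0 in either direction. The median log2 levels of the list on days 0, 3, 7 and 14 were 11.95, 8.39, 8.17 and 11.75.

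Of 19 keratins of epidermis and other epithelia on the array 1 rose and 0 fell, with a median difference of −0.02. Over all probe sets 1.46% rose and 0.402% fell. The number of these keratins that fell was 3 without B6 day 14 replicate 2 and 3 with array weights. It was 1 with cyclic loess scaling, with arrays centred on their median or with a variance trend. The one that rose was Krt75, a keratin of the companion layer next to the inner root sheath. It had 1003, 1249.7 and 1036 on day 14, against 230.3, 206 and 156 on day 7, and the difference was 2.49 ± 0.15 (adjusted p = 3.33e-10). Krt14, the basal epidermal keratin, had 8012, 9353 and 7238 on day 14, against 9900.5, 9863 and 11564 on day 7, so its days did not overlap, but the difference of −0.35 ± 0.10 did not pass (adjusted p = 0.0637). Krt14 did pass with cyclic loess scaling (0.0292), centred arrays (0.0101), array weights (0.0127) and a variance trend (0.04), and without B6 day 14 replicate 2 (0.0142).

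**Figure D2:**
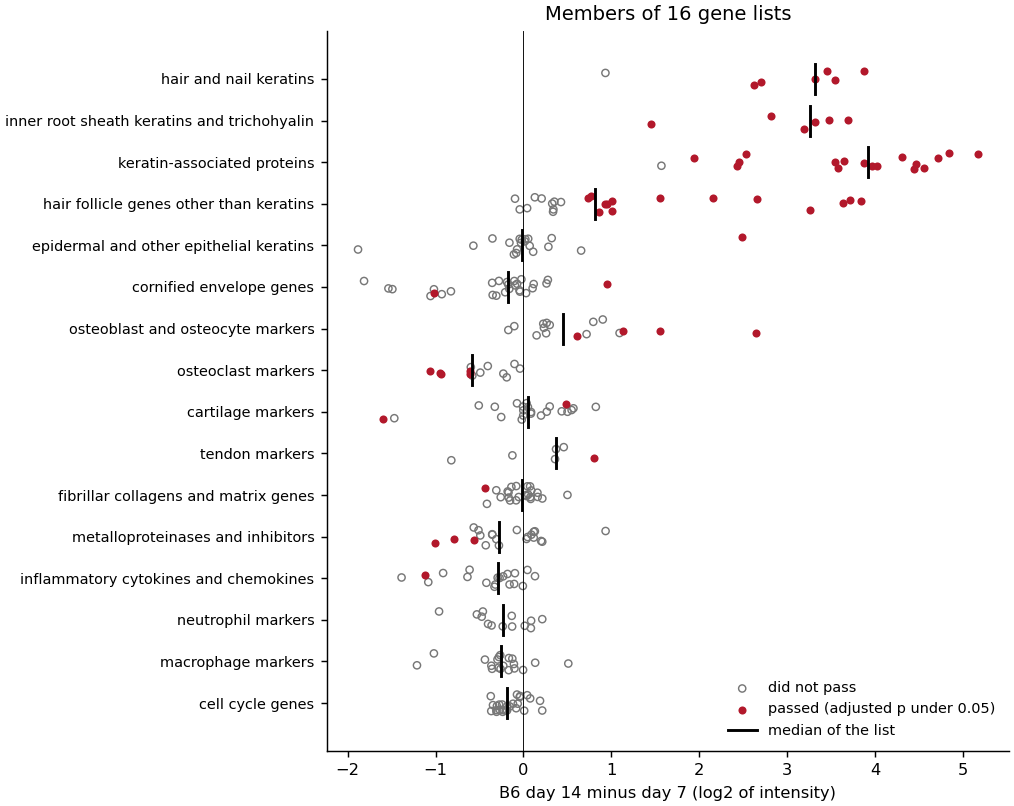
Log2 difference of B6 day 14 minus day 7 on the x axis for the members of 16 gene lists, 1 row a list. Filled points passed the test, open points did not, and bars mark list medians. The hair keratin, inner root sheath and keratin-associated lists have medians of 3.31, 3.25 and 3.91, and all osteoclast markers lie below 0.

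Other hair follicle genes rose as well. Of 24 on the array, 14 rose and 0 fell, where 1.46% of all probe sets rose and 0.402% fell. The median difference was 0.81. Dsg4, the desmosomal cadherin of the hair cortex, had 676, 765 and 832 on day 14, against 65.3, 58.9 and 38.1 on day 7. S100a3, a calcium-binding protein of the hair cuticle, had 2102, 2019.7 and 2439 on day 14, against 229, 179 and 111 on day 7. Both were about an order of magnitude higher on day 14, and neither overlapped. The differences were 3.84 ± 0.15 and 3.72 ± 0.19, and Dsg4 had the smallest adjusted p of the genes named (6.9e-13). Gprc5d, an orphan receptor of the hair-forming cells, had 703, 1143 and 861 on day 14, against 90.6, 83.6 and 47.3 on day 7. The peptidylarginine deiminase Padi3, which modifies trichohyalin, had 647, 743 and 799 on day 14, against 134, 114 and 99.6 on day 7. Their differences were 3.64 ± 0.28 and 2.66 ± 0.14, and those of the proline-rich Prr9 and of Psors1c2 were 3.26 ± 0.26 and 2.15 ± 0.14.

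Transcription factors of the follicle had smaller differences. Lef1, which carries Wnt signals to hair keratin genes, had 171, 175 and 186 on day 14, against 105, 92.3 and 70.2 on day 7. Hoxc13, a direct regulator of hair keratins, had 256, 285 and 312 on day 14, against 173, 146 and 125 on day 7. Foxn1, the gene mutated in nude mice, had 221, 255 and 208 on day 14, against 136, 133 and 133 on day 7. None of the 3 overlapped between the days, and the differences were 1.01 ± 0.13, 0.95 ± 0.14 and 0.76 ± 0.14 (adjusted p = 4.02e-05, 0.00014 and 0.00273). Chosen after their values were seen, the homeobox genes Msx2 and Dlx3 rose by 1.55 ± 0.19 and 1.01 ± 0.15, and Gata3, a factor of the inner root sheath, by 0.86 ± 0.11. The vitamin D receptor gene Vdr rose by 0.73 ± 0.13 and the deiminase gene Padi1 by 0.92 ± 0.13. Foxn1 had 339, 342 and 335 in day 0 digits, all above its day 14 values, and day 14 minus day 0 was −0.58 ± 0.14 (adjusted p = 0.00281). Day 14 minus day 0 was −0.42 ± 0.11 for Gata3 and −0.52 ± 0.13 for Vdr, with adjusted p of 0.00518 and 0.00432. Over the list, 0 of 24 were higher and 12 were lower on day 14 than on day 0. Over all probe sets 22.8% were higher and 14.2% lower.

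Lef1 was the 1 gene of 29 in the Wnt list, and Hoxc13 the 1 of 32 Hox genes, that passed. Of 23 BMP signalling genes 3 rose and 0 fell, where 1.46% of all probe sets rose and 0.402% fell. Bambi, a decoy receptor for BMP and activin, had 686, 445 and 522 on day 14, against 205, 199 and 163 on day 7, without overlap and with a difference of 1.53 ± 0.18. The ligand gene Bmp4 and the inhibitor gene Id4 rose by 0.57 ± 0.13 and 0.46 ± 0.11. The last 2 calls ended when single arrays were left out, with adjusted p up to 0.103 for Bmp4 and 0.189 for Id4.

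None of the 43 calls in the 4 hair lists was lost in the 6 fits that left out 1 array of either day. The order of the arrays within a day was uneven over these 43 genes. B6 day 14 replicate 1 was the lowest of the day 14 arrays in 33 of them, and B6 day 7 replicate 3 the lowest of the day 7 arrays in 31. Markers of neighbouring skin structures were set beside the hair lists. Over all probe sets 1.86% passed. Of 10 sebaceous gland genes 0 passed. The log2 of their summed intensities was 14.13 to 14.28 on day 14 and 13.89 to 14.12 on day 7. Of these 10 genes 6 had no overlap between the days, as had 16.5% of all genes. With cyclic loess scaling 2 of the 10 rose, and with centred arrays 1 did. Of 6 melanocyte markers 1 passed, Mitf (0.40 ± 0.10), and the summed level was 9.34 to 9.46 on day 14 and 9.08 to 9.16 on day 7. Mitf lost its call in each fit that left out 1 array, with adjusted p up to 0.214. Tyr, the pigment enzyme that defines melanocytes, had 25.8, 21.7 and 23.3 on day 14, against 20.7, 22.3 and 20.8 on day 7, and overlapped.

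**Figure D3:**
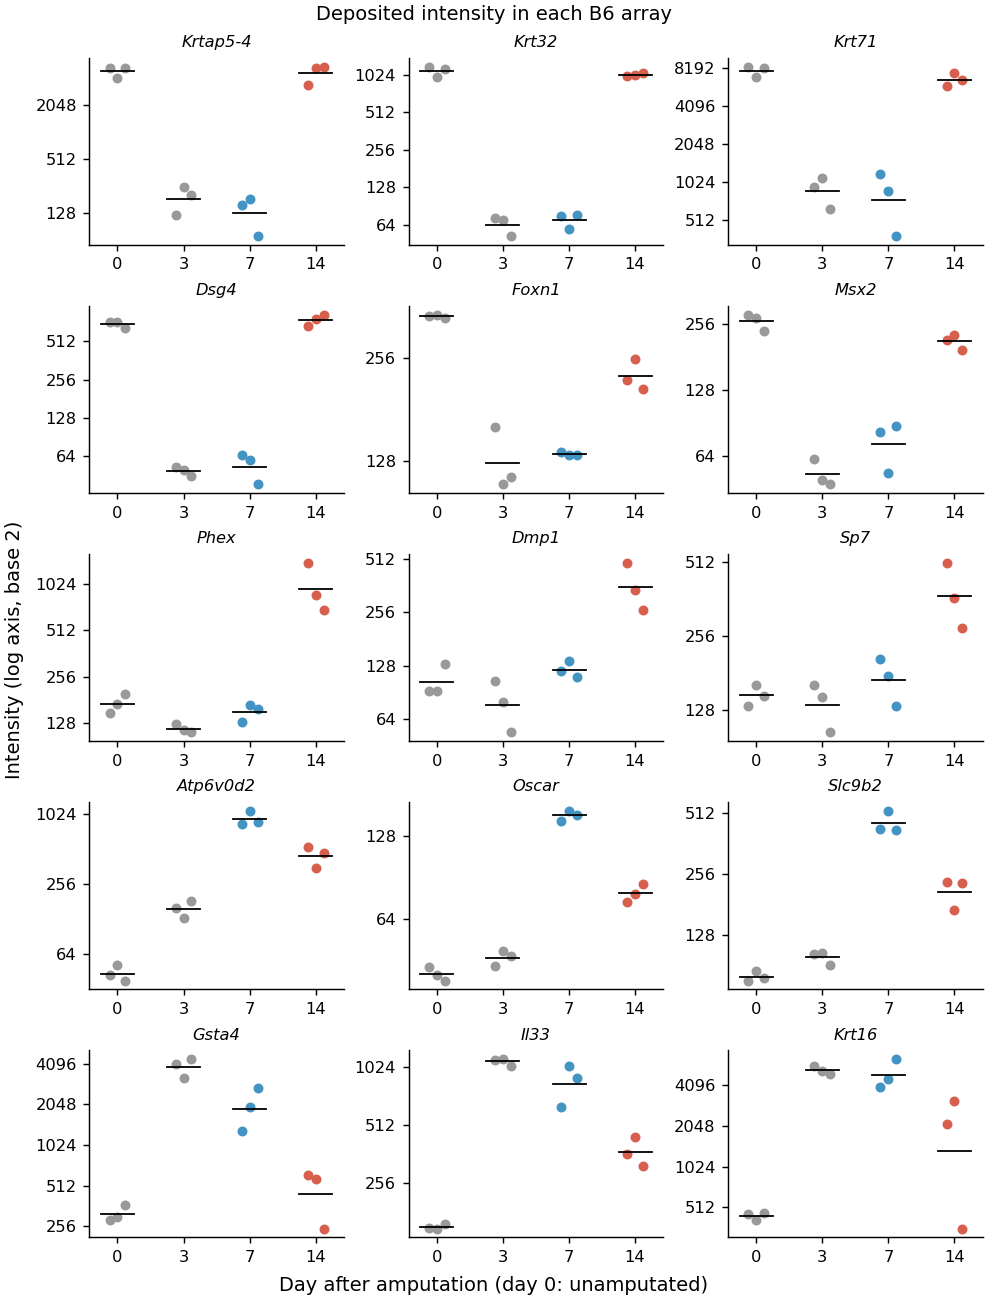
Deposited intensity of 15 genes in every B6 array, on log axes, against the day after amputation. Points are arrays (day 14 red, day 7 blue, other days grey) and bars are the means of the log2 values. The hair genes in the upper panels are low on days 3 and 7 and high on days 0 and 14, Phex, Dmp1 and Sp7 are highest on day 14, and the osteoclast genes are highest on day 7.

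Outside the lists, several genes rose by 2.28 or more on the log2 scale. They were chosen after their values were seen. Fbp1, an enzyme of gluconeogenesis, had 551, 545 and 618 on day 14, against 79.7, 86.1 and 65 on day 7. Gabrp, a subunit of the GABA-A receptor, had 431, 487 and 449.5 on day 14, against 73, 69.6 and 57.3 on day 7. Actbl2, an actin-like protein, had 344, 388 and 381 on day 14, against 59.1, 51.3 and 50.5 on day 7. In each gene the arrays of a day were close together and far from those of the other day, and the differences were 2.90 ± 0.17, 2.78 ± 0.15 and 2.79 ± 0.15. Actbl2 was also higher than in day 0 digits, where it had 226, 218 and 180.1 (day 14 minus day 0 0.84 ± 0.15, adjusted p = 0.000139). Tchhl1, a relative of trichohyalin, rose by 2.88 ± 0.21, Crym, a thyroid hormone-binding protein, by 2.52 ± 0.15, Vsig8 by 2.43 ± 0.14, Ly6g6g by 2.78 ± 0.19, and Ctse, the protease cathepsin E, by 2.44 ± 0.16. Sptssb, a small subunit of the enzyme that starts sphingolipid synthesis, had 151, 134 and 144 on day 14, against 28.1, 37 and 24.6 on day 7. It rose by 2.28 ± 0.24 and also exceeded the 60.3, 46.9 and 85.6 of day 0 digits (day 14 minus day 0 1.20 ± 0.24). Elf5, an epithelial transcription factor, rose by 1.64 ± 0.15, Tgm6, a transglutaminase, by 1.59 ± 0.12, and Sp6, a transcription factor of hair and tooth epithelium, by 1.04 ± 0.18.

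Genes that carry metals across membranes were also among those that rose. Slc39a8, an importer of zinc and manganese, had 640.0, 673 and 685 on day 14, against 228, 230.1 and 152 on day 7. The zinc importer gene Slc39a10 had 2393, 2286 and 2536 on day 14, against 1044, 1390.4 and 983 on day 7. Slc40a1, the iron exporter ferroportin, had 1703, 1948 and 1781 on day 14, against 1154, 974 and 904 on day 7. All 3 were without overlap, with differences of 1.73 ± 0.15, 1.09 ± 0.13 and 0.85 ± 0.12. These genes were chosen after their values were seen and do not stand for a tested class. Day 14 minus day 0 was 0.57 ± 0.15, 0.66 ± 0.13 and 0.42 ± 0.12 for the 3 genes. Likewise chosen, Ccn3, a matricellular protein, rose by 1.08 ± 0.19.

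Bone-forming cells were represented by 16 markers, of which 4 rose and 0 fell, with a median difference of 0.45. Over all probe sets 1.46% rose and 0.402% fell. The log2 of the summed intensities of the 16 markers was 13.41 to 14.00 on day 14 and 13.06 to 13.32 on day 7. Phex, an endopeptidase of osteoblasts and osteocytes that controls phosphate and mineralisation, had 1400.2, 868 and 692 on day 14, against 130.1, 168 and 158 on day 7. The day 14 arrays were spread but all far above the day 7 arrays. Phex rose 6.24-fold (2.64 ± 0.26, adjusted p = 6.91e-07). It had 149.8, 169 and 197 in day 0 digits, and day 14 minus day 0 was 2.46 ± 0.26 (adjusted p = 5.11e-07), so day 14 stood above both. Dmp1, a mineral-binding matrix protein of osteocytes, had 490.4, 344 and 265 on day 14, against 119, 136 and 109.9 on day 7. Sp7, the transcription factor osterix that commits cells to bone, had 507, 366 and 275 on day 14, against 207, 176 and 133 on day 7. For both, B6 day 14 replicate 1 was the highest array and replicate 3 the lowest of its day, as for Phex, without overlap with day 7. Dmp1 rose by 1.55 ± 0.28 and Sp7 by 1.13 ± 0.23, and the channel gene Panx3 rose by 0.60 ± 0.13. Day 14 minus day 0 was 1.78 ± 0.28 for Dmp1 and 1.34 ± 0.23 for Sp7.

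Other bone formation genes did not pass. Alpl, the phosphatase that frees phosphate for mineral, had 953, 758 and 556 on day 14, against 435, 489.9 and 361 on day 7, without overlap and with a difference of 0.79 ± 0.22 (adjusted p = 0.0694). It passed without B6 day 14 replicate 3 (1.00, adjusted p = 0.0277), with array weights (0.0154) and with the lowest 25% of levels left out (0.0422). Ibsp, a sialoprotein of new bone, had 5963, 4939 and 3397 on day 14, against 3151, 3689.9 and 1934 on day 7, which overlapped, with a difference of 0.72 ± 0.32 (adjusted p = 0.412). It had 216, 215 and 298 in day 0 digits, far below both days. The call of Sp7 ended without B6 day 7 replicate 3 (adjusted p = 0.0689) and without B6 day 14 replicate 1 (0.0676), and that of Panx3 in 3 of the 6 such fits (up to 0.07). In the fit to the 6 arrays alone the adjusted p was 0.00107 for Phex, 0.0102 for Dmp1, 0.0813 for Sp7 and 0.0793 for Panx3.

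Osteoclast markers were lower on day 14. Of 13 on the array 0 rose and 5 fell, where 1.46% of all probe sets rose and 0.402% fell. The median difference was −0.58, against 0.01 over all probe sets, and all 13 differences were negative. Oscar, a costimulatory receptor of osteoclasts, had 73.9, 78.6 and 86.1 on day 14, against 145, 158 and 153 on day 7. Dcstamp, which is needed for the fusion of osteoclast precursors, had 157, 106 and 136 on day 14, against 251, 249 and 263 on day 7. Atp6v0d2, a subunit of the proton pump that acidifies the resorption pit, had 537, 352 and 474 on day 14, against 842, 1103 and 881 on day 7. All 3 genes were lower in every day 14 array than in every day 7 array. Oscar fell 1.91-fold (−0.94 ± 0.09, adjusted p = 5.4e-07), Dcstamp 1.94-fold (−0.95 ± 0.18) and Atp6v0d2 2.09-fold (−1.06 ± 0.25). Tcirg1, another pump subunit, and Itgb3, the integrin that seals the cell to bone, fell, with differences of −0.61 ± 0.10 and −0.61 ± 0.14 (adjusted p = 0.000996 and 0.0168).

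On day 14, 9 of the 13 osteoclast markers were higher than in day 0 digits and 0 were lower. Over all probe sets 22.8% were higher and 14.2% lower. Atp6v0d2 had 41.6, 51.5 and 37.6 in day 0 digits, and day 14 minus day 0 was 3.37 ± 0.25 (adjusted p = 7e-09). Acp5, the acid phosphatase that stains osteoclasts, had 2448, 2084 and 2779.7 on day 14, against 3685, 3656 and 3655 on day 7, and the protease Ctsk had 5468, 4444 and 5599 on day 14, against 6828, 7082 and 6539 on day 7. Neither overlapped, and neither passed (−0.60 ± 0.17, adjusted p = 0.0879, and −0.41 ± 0.16, adjusted p = 0.333). Acp5 passed with centred arrays (adjusted p = 0.0243) and with array weights (0.0396). Mmp9, a gelatinase of osteoclasts, had a difference of −0.49 ± 0.22 (adjusted p = 0.417). Slc9b2, a sodium and proton exchanger of osteoclasts, is in no list and was among the lowest 15 genes, with 232, 170.2 and 230.1 on day 14, against 424, 523 and 422 on day 7 (−1.12 ± 0.18). Snx10, a sorting nexin that osteoclasts need for resorption, was chosen after its values were seen and fell by 0.86 on the log2 scale, with 205, 196 and 186 on day 14, against 323, 403 and 341 on day 7.

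Macrophages share a lineage with osteoclasts, and their 19 markers were set beside these genes. Of these 0 passed. Lower calls numbered 1 with cyclic loess scaling, 3 with arrays centred on their median and 2 with array weights. They numbered 1 without B6 day 7 replicate 3 and 1 without B6 day 14 replicate 2. Of the differences 17 were negative, where the median over all probe sets was 0.01. The log2 of the summed intensities was 13.51 to 13.53 on day 14 and 13.79 to 13.94 on day 7 for the macrophage markers. It was 13.35 to 13.68 on day 14 and 14.01 to 14.06 on day 7 for the osteoclast markers. Csf1r, the receptor that both lineages depend on, had 1041, 1005 and 1067 on day 14, against 1302, 1344 and 1339.6 on day 7, without overlap (−0.36 ± 0.10, adjusted p = 0.0924, with 0.0091 for centred arrays and 0.0397 with array weights). Adgre1, the F4/80 antigen of macrophages, had 548, 594 and 654 on day 14, against 705, 785 and 665 on day 7. The part of macrophages in the osteoclast differences was not tested. The calls of Atp6v0d2 and Itgb3 each ended in 4 of the 6 fits that left out 1 array, with adjusted p up to 0.156 without B6 day 7 replicate 2 and 0.0845 without B6 day 14 replicate 1. The list had 3 calls without B6 day 7 replicate 2, without B6 day 7 replicate 3 and without B6 day 14 replicate 2.

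In the cartilage, tendon and matrix lists most members did not pass. Over all probe sets 1.46% rose and 0.402% fell. Of 23 cartilage markers 1 rose and 1 fell. Epyc, a small proteoglycan of growth plate cartilage, had 105, 78 and 44.1 on day 14, against 163, 186 and 328 on day 7. It was lower in every day 14 array and fell 3.02-fold (−1.60 ± 0.31, adjusted p = 0.00499). Col11a2, a minor fibrillar collagen chain, rose by 0.49 ± 0.11. The calls of Epyc and Col11a2 ended in 2 and 4 of the 6 fits without 1 array. Their adjusted p reached 0.0534 without B6 day 7 replicate 3 and 0.168 without B6 day 14 replicate 1. Acan, the main proteoglycan of cartilage, had 432, 539 and 334 on day 14, against 428, 333 and 549 on day 7, with full overlap. Of 6 tendon markers 1 rose, Tnmd, a membrane protein of mature tendon cells, with 1157, 1064 and 1073 on day 14, against 626, 701 and 573 on day 7 (0.80 ± 0.13, adjusted p = 0.000895).

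Of 24 fibrillar collagen and matrix genes 0 rose and 1 fell. Tnc, the wound matrix protein tenascin C, had 1969, 2536 and 2109 on day 14, against 3013, 3008 and 2889 on day 7 (−0.44 ± 0.11). Of 12 collagen crosslinking genes 1 rose, Loxl4 (0.66 ± 0.11), and of 21 metalloproteinases and inhibitors 0 rose and 3 fell (7 with cyclic loess scaling and 8 with arrays centred on their median). Mmp3, the stromelysin of wound fibroblasts and keratinocytes, had 477, 641 and 518 on day 14, against 803, 1166 and 1371 on day 7. The inhibitor gene Timp1 had 1753, 1866 and 1434 on day 14, against 2865, 2918 and 2881 on day 7. Both were lower in every day 14 array, with differences of −1.01 ± 0.23 and −0.79 ± 0.20, and Adamts12 fell by 0.56 on the log2 scale. Mmp13 had 4247, 3338 and 2426 on day 14, against 3822, 4558 and 4133 on day 7, which overlapped (−0.36 ± 0.34, adjusted p = 0.821). The calls of Tnc, Mmp3, Timp1 and Adamts12 were lost in 5, 4, 6 and 2 of the 6 fits that left out 1 array. Their adjusted p reached 0.2 without B6 day 14 replicate 1, 0.139 without B6 day 7 replicate 3, 0.218 without B6 day 14 replicate 3 and 0.0737 without B6 day 7 replicate 3.

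The largest falls were in Idi2 and Gsta4. Gsta4, a glutathione transferase that removes lipid aldehydes, had 611, 574 and 246 on day 14, against 1302, 1977 and 2700.4 on day 7. Idi2, an isomerase of isoprenoid synthesis, had 66.2, 85.1 and 34.9 on day 14, against 143, 420.0 and 287 on day 7. Il33, an alarm cytokine of epithelial and stromal nuclei, had 360.2, 444 and 313 on day 14, against 633, 1029 and 891 on day 7. The days did not overlap in any of the 3, and B6 day 14 replicate 3 was the lowest array in each. Gsta4 fell 4.32-fold (−2.11 ± 0.26, adjusted p = 1.71e-05), Idi2 4.44-fold (−2.15 ± 0.34) and Il33 2.26-fold (−1.18 ± 0.19). In the fit to the 6 arrays alone Gsta4 and Il33 passed (adjusted p = 0.0445 and 0.0321) and Idi2 did not (0.0687). In day 0 digits Gsta4 had 285, 299 and 366 and Il33 150.3, 149 and 158. Day 14 minus day 0 was 0.49 ± 0.26 (adjusted p = 0.151) for Gsta4 and 1.28 ± 0.19 (adjusted p = 2.24e-05) for Il33.

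Other genes among the 15 named falls are known from epithelia or as secreted proteins. Slpi, an antiprotease of wounded epithelium, had 257, 305 and 186 on day 14, against 436, 748 and 986 on day 7. Dsc2, a desmosomal cadherin, had 297, 461 and 177 on day 14, against 471, 780.2 and 913 on day 7. Il24, a cytokine of the IL-10 family, had 52.5, 45.5 and 34.6 on day 14, against 54.5, 113 and 139 on day 7. Each was without overlap, with differences of −1.49 ± 0.30, −1.26 ± 0.26 and −1.12 ± 0.25, and B6 day 14 replicate 3 was again the lowest. The protease inhibitor gene Serpina3n fell, with a difference of −1.05 ± 0.19, Aldh1a2, which makes retinoic acid, by −1.23 ± 0.28, Mal, a membrane protein of myelin and epithelia, by −1.12 ± 0.26, and the protease gene Tmprss11b by −1.65 ± 0.43 (adjusted p = 0.0489). Olfr11 and Olfr1339, which are odorant receptor genes, fell at low intensities, with 50.4, 44.4 and 76.7 and 21.8, 27.8 and 27.9 on day 14, against 104, 104 and 134 and 48.6, 74.8 and 39.6 on day 7. Chosen after their values were seen, Cfb, a complement factor, Inhba, a subunit of activin, and Nlrp3, an inflammasome sensor, had differences of −0.63 ± 0.14, −0.81 ± 0.20 and −0.74 ± 0.17. Leaving out 1 array ended the call of Slpi in 2 of 6 fits and that of Aldh1a2 in 5. It ended those of Dsc2, Il24, Tmprss11b and Olfr11 in 3, and those of Mal, Olfr1339, Cfb, Inhba and Nlrp3 in 4. The adjusted p reached 0.233 for Tmprss11b without B6 day 7 replicate 2 and 0.125 for Il24 without B6 day 7 replicate 3. It reached 0.221 for Inhba without B6 day 14 replicate 3 and 0.142 for Cfb without B6 day 14 replicate 1. Without B6 day 14 replicate 3 the difference of Tmprss11b was −0.80 (adjusted p = 0.131), that of Il24 −0.96 (0.117), that of Dsc2 −0.91 (0.08) and that of Mal −0.87 (0.166). Without B6 day 7 replicate 3 the adjusted p was 0.0737 for Slpi, 0.142 for Aldh1a2, 0.103 for Olfr11, 0.131 for Cfb and 0.155 for Inhba. Without B6 day 7 replicate 2 it was 0.208 for Olfr1339 and 0.161 for Nlrp3. In the fit to the 6 arrays alone Aldh1a2 passed (adjusted p = 0.0306). Slpi (0.069), Serpina3n (0.054), Dsc2 (0.207), Il24 (0.219), Mal (0.145) and Tmprss11b (0.391) did not.

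In lists of the epidermis and of inflammation most members did not pass. Over all probe sets 1.46% rose and 0.402% fell. Of 28 cornified envelope genes 1 rose, Sprr4 (0.95 ± 0.22), and 1 fell, Sprr1b (−1.02 ± 0.23). The number that fell was 3 without B6 day 14 replicate 2 and with array weights, 2 without B6 day 7 replicate 1, with cyclic loess scaling and with centred arrays, and 0 without any other array of the 6. Of 10 desmosome genes 1 rose, Dsg2 (0.48 ± 0.10), and 1 fell, Dsc2. Of these genes 2 fell without B6 day 14 replicate 2. None fell without B6 day 7 replicate 2, without B6 day 7 replicate 3 or without B6 day 14 replicate 3. Krt16, the keratin of wounded epidermis, had 2118, 3142 and 355 on day 14, against 4003, 4566 and 6450.2 on day 7. Its days did not overlap, B6 day 14 replicate 3 stood far below the other arrays, and the difference of −1.88 ± 0.58 did not pass (adjusted p = 0.122). It was −0.93 without that array (adjusted p = 0.611), and it passed without B6 day 14 replicate 2 (−2.50, 0.0284) and with array weights (0.0371). Lce3f, an envelope gene of barrier repair, and Epgn, a ligand of the EGF receptor, were chosen after their values were seen and showed −1.81 ± 0.54 (adjusted p = 0.104) and −1.68 ± 0.48 (adjusted p = 0.0879). Lce3f had 422, 664 and 82.1 on day 14, against 792, 812 and 1551 on day 7, with the lowest value again in B6 day 14 replicate 3. Its difference was −0.92 without that array (adjusted p = 0.545), and it passed without B6 day 14 replicate 2 (−2.42, 0.0187) and with array weights (0.0362). Epgn passed without B6 day 7 replicate 1 (−2.38, adjusted p = 0.00258). The calls of Sprr4, Sprr1b and Dsg2 ended in 5, 4 and 2 of the 6 fits without 1 array. Their adjusted p reached 0.195 without B6 day 14 replicate 1, 0.135 without B6 day 14 replicate 3 and 0.0614 without B6 day 7 replicate 2.

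Of 19 inflammatory cytokines and chemokines 0 rose and 1 fell, Il24. The number that fell was 2 without B6 day 7 replicate 1. It was 0 without B6 day 7 replicate 2, without B6 day 7 replicate 3 and without B6 day 14 replicate 3. It was also 0 in the fit to the 6 arrays alone, with array weights and with the lowest 25% of levels left out. In the list 17 differences were negative, with a median of −0.29, against 0.01 over all probe sets. The log2 of the summed intensities of these 19 genes was 12.20 to 12.64 on day 14 and 12.37 to 13.33 on day 7. Of 13 neutrophil markers 0 passed, and their summed level was 11.65 to 12.86 on day 14 and 12.26 to 13.01 on day 7. Chosen after their values were seen, the chemokine gene Cxcl2 had 408, 475 and 443 on day 14, against 689.9, 2018 and 1102 on day 7, and Chil3, a chitinase-like protein of macrophages, had 30.1, 29.5 and 28.2 on day 14, against 52.7, 134 and 44 on day 7. Arginase gene Arg1, likewise chosen, had 1525, 1796 and 619 on day 14, against 2235, 2585 and 2438 on day 7. All 3 were lower in every day 14 array without passing (−1.39 ± 0.44, −1.21 ± 0.34 and −1.02 ± 0.27, adjusted p = 0.148, 0.0763 and 0.0613). Arg1 was −0.55 without B6 day 14 replicate 3 and passed without B6 day 14 replicate 2 (−1.31, adjusted p = 0.0116). It also passed with cyclic loess scaling (0.0439), centred arrays (0.0402), array weights (0.0198) and the lowest 25% of levels left out (0.0344). Chil3 was −0.72 without B6 day 7 replicate 2 and passed without B6 day 7 replicate 3 (−1.52, adjusted p = 0.0336). The part of these cell types in the epithelial differences was not tested.

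In 3 further lists 1 member passed, where 1.46% of all probe sets rose and 0.402% fell. Bnip3, a mitophagy receptor, fell among 18 hypoxia and glycolysis genes (−0.54 ± 0.11), and Mal fell among 12 Schwann cell and myelin markers. Rpl37 rose among 20 ribosomal protein genes (1.12 ± 0.27), with adjusted p up to 0.17 without 1 array and 0.0616 after cyclic loess scaling. The call of Bnip3 ended without B6 day 14 replicate 3 (adjusted p = 0.0705), where 0 of the 18 fell, while 3 fell without B6 day 14 replicate 2. None of 26 cell cycle genes passed, with 21 negative differences and a median difference of −0.19, against 0.01 over all probe sets. None passed either among 13 interferon response genes, 5 MHC class II genes, 10 T and NK cell markers, 5 B and plasma cell markers, 7 mast cell markers and 8 erythroid markers. The same held for 11 adipocyte markers, 9 skeletal muscle markers, 20 endothelial genes, 10 EGF family genes and 48 respiratory chain subunits. Of the EGF family genes 2 fell without B6 day 7 replicate 1, and 1 fell with cyclic loess scaling and with centred arrays. Without B6 day 14 replicate 2, 1 adipocyte marker rose and 1 cell cycle gene fell. Array weights added 1 adipocyte marker and 1 endothelial gene that rose and 2 cell cycle genes that fell, and centring added 1 fall each among the cell cycle, endothelial and respiratory chain genes.

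The change of day 14 minus day 7 in B6 was set against the same change in MRL digits, by the difference of the changes. Of 15928 probe sets 42 passed (0.264%), 27 with a more positive change in B6 (0.17%) and 15 with a more negative one (0.0942%). The count was 27 to 50 when 1 of the 12 arrays was left out. It was 27 without B6 day 7 replicate 2 and 27 without MRL day 14 replicate 1. In the fit to the 12 arrays alone 1 probe set passed, and with array weights 201 did. In MRL digits 564 probe sets passed between the days (3.54%), 279 of them higher (1.75%) and 285 lower (1.79%).

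The hair genes rose in both strains. The median change of the keratin-associated proteins was 3.91 in B6 and 2.37 in MRL, and 17 of 18 rose in each. The inner root sheath keratins had medians of 3.25 in B6 and 1.92 in MRL, and all 6 rose in each. In the test of the difference itself 2 of the 18 keratin-associated proteins, 1 of the 7 hair and nail keratins and 0 of the 6 inner root sheath keratins passed. Krtap5-4 had 7074, 6642 and 6453 on day 14 in MRL, against 873, 1369 and 1312 on day 7. On both days these values were above those of every B6 array of the same day. Its change was 5.16 ± 0.32 in B6 and 2.53 ± 0.32 in MRL, a difference of 2.63 ± 0.46 (adjusted p = 0.00935). S100a3 and Dsg4 rose by 1.89 ± 0.19 and 2.35 ± 0.15 in MRL, and the B6 changes were more positive by 1.83 ± 0.27 and 1.49 ± 0.21 (adjusted p = 0.00327 and 0.00282).

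**Figure D4:**
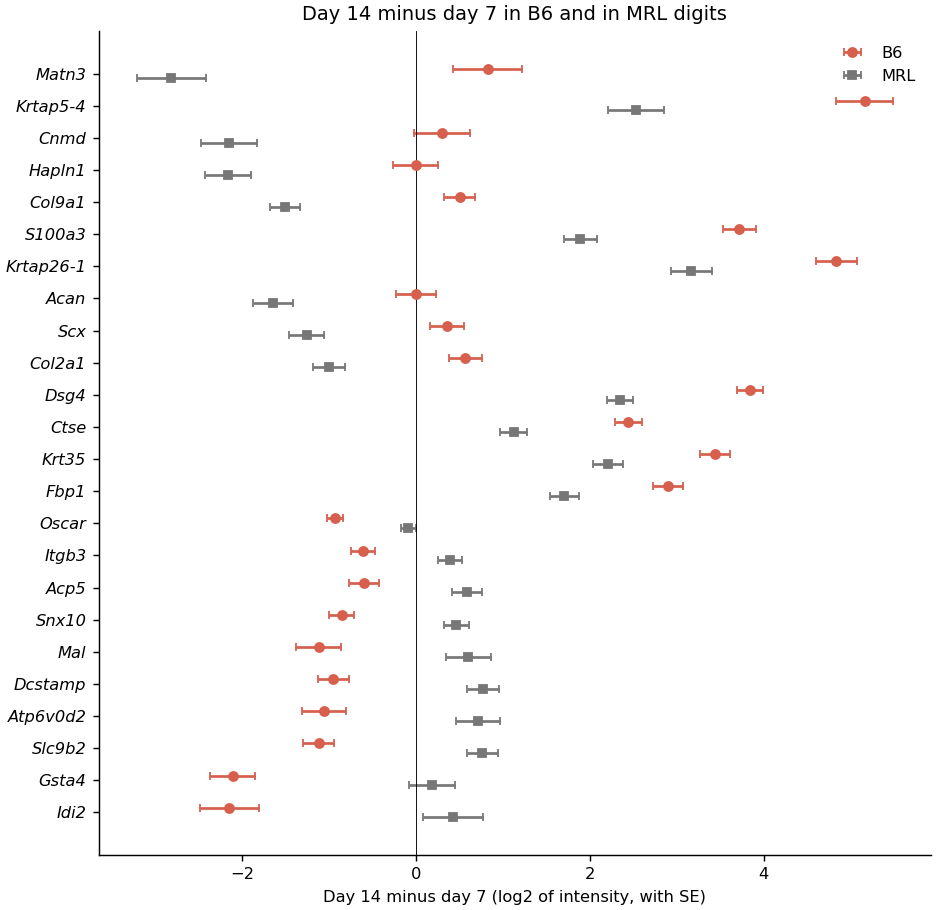
Day 14 minus day 7 on the log2 scale with the SE, for 24 named genes whose change differed between the strains, B6 as circles and MRL as squares. Hair genes rose in both strains, with the larger change in B6. Cartilage genes fell in MRL and did not pass in B6, and the osteoclast genes lie below 0 in B6.

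The largest strain difference among the named genes was in a cartilage gene. Matn3, a matrilin of cartilage matrix, had 99.4, 359 and 67.2 on day 14 in B6, against 87.5, 66.6 and 74.4 on day 7, with B6 day 14 replicate 2 above the rest. In MRL it had 67.1, 56.2 and 67.4 on day 14, against 280.3, 417 and 767 on day 7. The B6 change was 0.82 ± 0.40 and the MRL change −2.82 ± 0.40, a difference of 3.64 ± 0.56 (adjusted p = 0.00327). Of the 23 cartilage markers 8 passed the test of the difference, all with the more positive change in B6, and 9 fell in MRL. The differences were 2.45 ± 0.46 for Cnmd, 2.16 ± 0.37 for the link protein gene Hapln1, 2.01 ± 0.25 for Col9a1, 1.64 ± 0.33 for Acan and 1.57 ± 0.27 for Col2a1, the main collagen of cartilage. None of these genes passed between day 14 and day 7 in B6. Scx, the transcription factor of tendon, changed by 0.36 ± 0.20 in B6 and −1.26 ± 0.20 in MRL (difference 1.62 ± 0.28).

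The osteoclast markers had a median change of −0.58 in B6 and 0.28 in MRL. Of 13 markers 5 passed the test of the difference, all with the more negative change in B6. Dcstamp had 136, 107 and 141 on day 14 in MRL, against 58.3, 74.6 and 95.4 on day 7. Its change was −0.95 ± 0.18 in B6 and 0.77 ± 0.18 in MRL, and the difference was −1.72 ± 0.26 (adjusted p = 0.00327). Slc9b2 changed by −1.12 ± 0.18 in B6 and 0.76 ± 0.18 in MRL, and Atp6v0d2 by −1.06 ± 0.25 in B6 and 0.71 ± 0.25 in MRL. The differences of Slc9b2, Atp6v0d2, Acp5 and Itgb3 were −1.88 ± 0.25, −1.78 ± 0.36, −1.18 ± 0.24 and −0.999 ± 0.19. Oscar, with −0.85 ± 0.13, had a change near 0 in MRL (−0.09 ± 0.09). Gsta4 and Idi2 fell in B6 and changed by 0.18 ± 0.26 and 0.42 ± 0.34 in MRL, differences of −2.29 ± 0.37 and −2.57 ± 0.49. Of the 10 genes the rule named for the strain difference, 7 passed in all 12 fits without 1 array, while Atp6v0d2, Idi2 and Cnmd lost the call in 9, 7 and 2 of them (adjusted p up to 0.114, 0.0688 and 0.0557). In the fit to the 12 arrays alone the adjusted p of the 10 genes was 0.0508 to 0.151.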

How the data were processed

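Per the labels' protocols, RNA of the digits was amplified and biotin-labelled with the Affymetrix whole-transcript kits. Per the submitters' processing notes, the arrays were summarised with RMA in Affymetrix Expression Console on build mm8, and no versions were stated. The deposited values are linear intensities, 1 for each probe set, ranging from 3.99 to 12789, and their log2 was taken here with no further scaling. Of 16661 probe sets 733 had no gene symbol and were left out, and the 989 with several symbols were tested but not named. For genes with more than 1 probe set, the one with the highest mean was kept, which left 14807 genes. The 24 arrays were fitted as 8 group means of 3 arrays with limma 3.58.1 in R 4.3.3 (16 residual and 4.62 prior degrees of freedom), and p-values were adjusted by Benjamini-Hochberg over 15928 probe sets at a threshold of 0.05. The number of arrays limits the precision. Named genes were the 15 highest and 15 lowest differences among genes that passed without overlap (predicted genes left out), the keratins, up to 6 calls and the first 3 symbols of each list, and 5 strain differences each way. The members and gene lists were chosen with earlier results of these data known. Alternatives were other scalings, filters and variance models, the 6 or 12 compared arrays alone, a replicate block and leaving out each array.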

Additional observations from a re-analysis of the deposited data

Results flagged for a closer look

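The genes in this section stand out because their change from day 7 to day 14 differed between the strains, by a test of the difference itself in the limma fit (adjusted p over 15928 probe sets). The 24 genes were all of those named that passed it. Of these, only the 5 highest and 5 lowest differences named by the rule were refitted in other settings. In the fit to the 12 arrays alone the adjusted p of the refitted genes was 0.0508 to 0.151. Of all probe sets 1 passed in that fit. Values are the B6 change minus the MRL change on the log2 scale, and no cause was tested.

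Among hair genes, the difference was 2.63 for Krtap5-4, 1.67 for Krtap26-1, 1.83 for S100a3, 1.49 for Dsg4 and 1.24 for Krt35. All 5 rose in both strains, with the larger change in B6. A larger change is not a higher level. For Krtap5-4 the MRL arrays were above the B6 arrays on both days, and MRL levels of the other genes are not given here. Fbp1 and Ctse, which were chosen after their values were seen, also rose in both, with differences of 1.19 and 1.32.

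Among cartilage and tendon genes, it was 3.64 for Matn3, 2.45 for Cnmd, 2.16 for Hapln1, 2.01 for Col9a1, 1.64 for Acan, 1.57 for Col2a1 and 1.62 for Scx. The B6 changes of these 7 genes ran from −0.01 to 0.82 and did not pass, and their MRL changes ran from −2.82 to −1.004.

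Among osteoclast genes, it was −1.88 for Slc9b2, −1.78 for Atp6v0d2, −1.72 for Dcstamp, −1.32 for Snx10, −1.18 for Acp5, −1 for Itgb3 and −0.85 for Oscar. The MRL change was above 0 in these except Oscar, whose MRL change was −0.09. For Gsta4 it was −2.29, for Idi2 −2.57 and for Mal −1.72, 3 genes that fell in B6 and whose MRL changes were 0.18, 0.42 and 0.60.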

How the results depend on the processing

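Of 110 named genes that passed between day 14 and day 7 in B6, 70 kept their call in all 14 alternative settings and 2, Oscar and Krtap4-13, in the 13 that included them, while 38 lost it in at least 1 and 0 changed sign. A further 9 named genes that did not pass did so in at least 1 setting (Acp5, Alpl, Arg1, Chil3, Csf1r, Epgn, Krt14, Krt16 and Lce3f). The 43 calls in the hair lists were kept in the fits that left out 1 array. The count of probe sets that passed was 296, with 232 higher and 64 lower. It was 459 (286 higher, 173 lower) with cyclic loess scaling, 477 (229 and 248) with arrays centred on their median, 557 (346 and 211) with array weights and 159 (135 and 24) in the fit to the 6 arrays alone. Leaving out 1 array gave 174 to 293, with 145 to 198 higher and 18 to 122 lower. Between day 14 and day 0 the 5890 calls, 2266 of them lower, became 7355 with 4052 lower after centring, and 4618 to 5197 without 1 array, with 2941 to 3429 higher and 1525 to 1864 lower. The 42 strain differences became 201 (140 higher in B6 and 61 lower) with array weights and 1 (1 and 0) in the fit to the 12 arrays alone, while 26 were lower with cyclic loess scaling and 28 were lower after centring. Without 1 of the 12 arrays they were 27 to 50, with 15 to 33 higher and 6 to 17 lower. Among genes that did not pass between day 14 and day 7, the sign turned when 1 array was left out or the scaling changed for Hapln1 (0.0075 with cyclic loess scaling, and −0.25 to 0.29 without 1 array, above 0 without B6 day 7 replicate 1 and without B6 day 14 replicate 3), for Acan (−0.18 to 0.18, above 0 without B6 day 7 replicate 3 and without B6 day 14 replicate 3) and for Cnmd (−0.12 to 0.66, below 0 without B6 day 14 replicate 2). The cause of these shifts was not tested.

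The replicate numbers recur in each group, and the labels do not say whether they pair the arrays. Deviations of same-numbered B6 arrays of day 14 and day 7 correlated at −0.06, −0.07 and −0.09. Those of other-numbered arrays correlated at −0.007 to 0.08. With 3 arrays a day these values cannot settle whether arrays were paired. With the replicate block 290 probe sets passed between day 14 and day 7, 5723 between day 14 and day 0, and 39 for the strain difference. The calls of Rpl37, Timp1 and Tmprss11b ended under it (adjusted p = 0.0506, 0.0646 and 0.0594), as did the strain difference of Atp6v0d2 (0.0608).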
